A study of Mus musculus with 4 samples.

Results

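The genes described here are the interleukins, their receptors and 4 related genes. They comprise every row of the count table whose symbol starts with Il and a digit, other than Il7 and Il7r, together with the cytokine gene Lif and the receptor genes Lifr, Osmr and Il6st. The set held 72 of the 17230 rows: 29 ligands and antagonists, 42 receptors, decoys and binding proteins, and Il4i1, an amino acid oxidase that carries an interleukin-type symbol. Of these, 11 were placed by family in the gp130 group, 7 receptor chains and 4 ligands, whether or not each chain pairs with gp130 itself.

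The expression data were bulk RNA sequencing counts from CXCL12-abundant reticular (CAR) cells, marrow stromal cells that make the chemokine CXCL12 and support blood cell production, and the series compared CAR cells that arose from fetal perichondrium with CAR cells that arose from chondrocytes. Cells came from femurs of mice at postnatal day 21 that had been given tamoxifen once at embryonic day 12.5. The Hes1-derived libraries, replicates 1 and 3, had the genotype Cxcl12(GFP/+); Hes1(CreER/+); R26R(tdTomato/+), and the Fgfr3-derived libraries, replicates 2 and 3, had the genotype Cxcl12(GFP/+); Fgfr3-iCreER; R26R(tdTomato/+). Cells that had active Cre at the time of the dose, and their progeny, express tdTomato, and the cell type labels give both groups as GFP+tdTomato+. Both genotypes carry 1 GFP allele at Cxcl12, and the Cre driver and the origin of the cells cannot be told apart. The labels do not say whether the replicates were separate animals or pools, so p-values measure the spread between these libraries, which may be technical.

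Totals ran from 22745128 to 26804832 reads, and the 72 genes took 0.199% to 0.303% of them. Levels are given in CPM, counts brought to a common library total with TMM factors, in the order Hes1-derived replicates 1 and 3, then Fgfr3-derived replicates 2 and 3. Cxcl12 was abundant in every library, at 7054 and 4178 against 9759 and 7025 CPM. The eGFP row stood at 6667 and 3203 against 9260 and 6752 CPM, and the tdTomato-WPRE row, at 229 and 113 against 382 and 510 CPM, was called lower in Hes1-derived libraries (log2 fold change −1.39 ± 0.36, edgeR adjusted p = 0.04998, just inside the threshold). The libraries also held reads of other cell types, in unequal amounts. The 10 pan-leukocyte markers summed to 6125 to 7261 CPM in the Hes1-derived and 1771 to 3822 CPM in the Fgfr3-derived libraries. B lymphocyte markers summed to 2512 to 2660 against 668 to 751 CPM, and neutrophil markers to 26244 to 30742 against 8553 to 21141 CPM. Monocyte and macrophage markers summed to 1712 to 1808 against 1257 to 1984 CPM. That sum includes Vcam1, which is also counted among the CAR stroma markers, so it is not of leukocyte reads alone. The 9 osteoblast markers went the other way, at 4782 to 4793 against 27309 to 30941 CPM, and the 20 CAR stroma markers summed to 13206 to 19815 against 19445 to 29347 CPM. The 7 osteoclast markers summed to 1295 to 1608 against 3282 to 3302 CPM. In such bulk samples fewer cells of a type and less RNA per cell cannot be told apart.

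Cytokines of the interleukin 6 family signal through gp130, the product of Il6st, which pairs with a second chain that gives ligand specificity. LIFR joins gp130 to bind leukaemia inhibitory factor (LIF), OSMR joins it to bind oncostatin M, and IL6RA and IL11RA bind their ligands and recruit pairs of gp130; the assembled receptors signal through JAK kinases and mainly STAT3. In bone these cytokines act on osteoblasts, osteocytes and marrow stroma. Interleukin 1 signals through IL1R1 with the accessory chain IL1RAP, IL1RN blocks that receptor without activating it, and IL1R2 binds the ligand as a decoy.

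Promoters were read from RefSeq (GRCm38.p6), from 250 bases before to 50 bases after each annotated start. The 5 shown are those of the genes that the main comparisons turn on: the pair of gp130 partner chains that were lower in Hes1-derived libraries, gp130 itself, the ligand LIF, and the interleukin 1 antagonist. Each runs 5′ to 3′ on the gene's own strand, and capitals mark matches to AP-1 (TGANTCA) or RUNX (TGTGGT).
Lifr, chr15:7129322-7129621, plus strand: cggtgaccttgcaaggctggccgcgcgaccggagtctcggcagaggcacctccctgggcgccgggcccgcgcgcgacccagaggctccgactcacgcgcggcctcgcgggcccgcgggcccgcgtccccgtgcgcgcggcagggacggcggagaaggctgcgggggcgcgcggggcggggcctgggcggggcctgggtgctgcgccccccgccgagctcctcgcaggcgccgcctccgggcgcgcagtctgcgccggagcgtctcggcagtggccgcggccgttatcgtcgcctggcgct
Osmr, chr15:6874264-6874563, minus strand: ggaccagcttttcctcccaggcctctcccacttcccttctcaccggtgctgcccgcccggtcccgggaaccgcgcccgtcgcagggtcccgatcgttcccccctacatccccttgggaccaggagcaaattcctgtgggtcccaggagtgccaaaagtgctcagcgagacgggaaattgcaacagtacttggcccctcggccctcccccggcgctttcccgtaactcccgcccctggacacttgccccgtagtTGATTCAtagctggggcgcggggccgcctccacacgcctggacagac
Il6st, chr13:112463820-112464119, plus strand: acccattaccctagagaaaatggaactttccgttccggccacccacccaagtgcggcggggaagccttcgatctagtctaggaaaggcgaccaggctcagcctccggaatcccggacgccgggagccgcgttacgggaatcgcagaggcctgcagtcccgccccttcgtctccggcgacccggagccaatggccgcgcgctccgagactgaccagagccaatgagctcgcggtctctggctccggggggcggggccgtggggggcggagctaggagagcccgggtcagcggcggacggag
Lif, chr11:4257318-4257617, plus strand: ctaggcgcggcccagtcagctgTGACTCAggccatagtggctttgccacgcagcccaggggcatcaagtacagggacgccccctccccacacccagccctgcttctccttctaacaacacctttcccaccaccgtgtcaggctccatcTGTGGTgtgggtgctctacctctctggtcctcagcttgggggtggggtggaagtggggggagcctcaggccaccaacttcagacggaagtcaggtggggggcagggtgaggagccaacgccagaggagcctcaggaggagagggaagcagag
Il1rn, chr2:24336610-24336909, plus strand: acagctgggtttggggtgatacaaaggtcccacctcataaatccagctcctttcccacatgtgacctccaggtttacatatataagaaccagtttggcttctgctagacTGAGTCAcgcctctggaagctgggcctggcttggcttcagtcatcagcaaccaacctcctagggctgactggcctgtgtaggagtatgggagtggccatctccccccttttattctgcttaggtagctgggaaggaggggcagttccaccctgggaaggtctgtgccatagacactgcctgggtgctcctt

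The receptor promoters were rich in CpG pairs: 53 in that of Lifr, 33 in that of Il6st and 22 in that of Osmr, where the median over 32851 promoters was 7. The Lif promoter had 7 and the Il1rn promoter shown 1, and the GC content was 81.3% in Lifr and 54.0% in Il1rn. AP-1 matches lay at position 4 in Osmr, −228 in Lif and −141 in Il1rn, and a RUNX match at −102 in Lif, with positions counted from the RefSeq start as 1. The windows of Lifr and Il6st held none of the 3 motifs searched on both strands, and no window of these 5 held the STAT motif TTCNNNGAA. Over the whole set 59 genes matched RefSeq, with 75 promoters, of which 14 (18.7%) held AP-1, 9 (12%) the STAT motif and 18 (24%) RUNX; the shares of all promoters were 7.81%, 8.30% and 16.8%. The motifs do not overlap each other in the windows shown. RefSeq starts of Lifr and Osmr lie inside their GENCODE M21 gene models, which reach farther upstream, and Lifr has a further RefSeq start with 4 CpG pairs in its window. Il1rn has 2 further starts, whose windows held 5 and 4 CpG pairs and 0 AP-1 matches.

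The 2 groups were compared by edgeR's quasi-likelihood test over all genes, with Benjamini-Hochberg adjustment and a threshold of 0.05. A positive log2 fold change means a higher level in the Hes1-derived group, and each is followed by its standard error. Of the 72 genes, 53 passed edgeR's filter on low counts. Of these, 7 were higher in Hes1-derived libraries (13.2%, where 5.24% of all 14330 tested genes were), 4 were lower (7.55%, against 6.56% of all), and 42 did not pass. The higher ones were the ligands Il1b, Il16 and Il12a and the receptor chains Il10ra, Il21r, Il2ra and Il2rg; the lower ones were Lifr, Osmr, Il12rb1 and the antagonist Il1rn. The 2 groups of libraries did not overlap for 36 of the 53 (67.9%), where 61.9% of all tested genes did not, 29.8% with the Hes1-derived group higher and 32.1% with it lower. The median log2 fold change of the 53 was 0.23 and that of all tested genes −0.02. A gene that is high in a single group can pass the filter through that group, so the 53 are not a sample of the whole set.

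The split of calls moved with the scaling and the tool. DESeq2 called 13 genes of the set higher (8.19% of all rows) and 9 lower (9.01%), and limma-voom called 9 higher (6.22% of all tested genes) and 7 lower (7.32%). Beyond the 11 calls above, DESeq2 added Il18rap, Il1r2, Il2rb, Il33, Il34 and Il6ra as higher and Il17rc, Il1rl2, Il3ra, Il4ra and Lif as lower, and limma-voom added Il18rap and Il33 as higher and Il17rc, Il1rl2 and Lif as lower. When libraries were scaled to the summed CAR stroma markers, 13 genes of the set were called higher (6.54% of all) and 1 lower (0.935% of all), and when they were scaled to the eGFP row, 6 were higher (2.26% of all) and 0 lower (0.133% of all; with TMM factors 24 of the 53 had negative log2 fold changes). These scalings moved the median log2 fold change of all tested genes from −0.02 to 0.54 and 0.83. Both scalings shift all genes by nearly the same amount, so the values relative to the median are close by construction: Lifr lay at −1.88 with TMM factors, −1.92 with the stroma scaling and −1.99 with the eGFP scaling, Osmr at −1.62, −1.64 and −1.65, and Il1b at 2.35, 2.24 and 2.21. Of the 24 negative log2 fold changes, 10 turned positive with the stroma scaling (Il6st, Il10rb, Il11, Il15, Il15ra, Il17b, Il17d, Il18bp, Il1rap and Il1rl1), and with the eGFP scaling those and 3 more did (Il13ra1, Il1r1 and Il20rb). None of the 4 lower calls was among them.

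**Figure D1:**
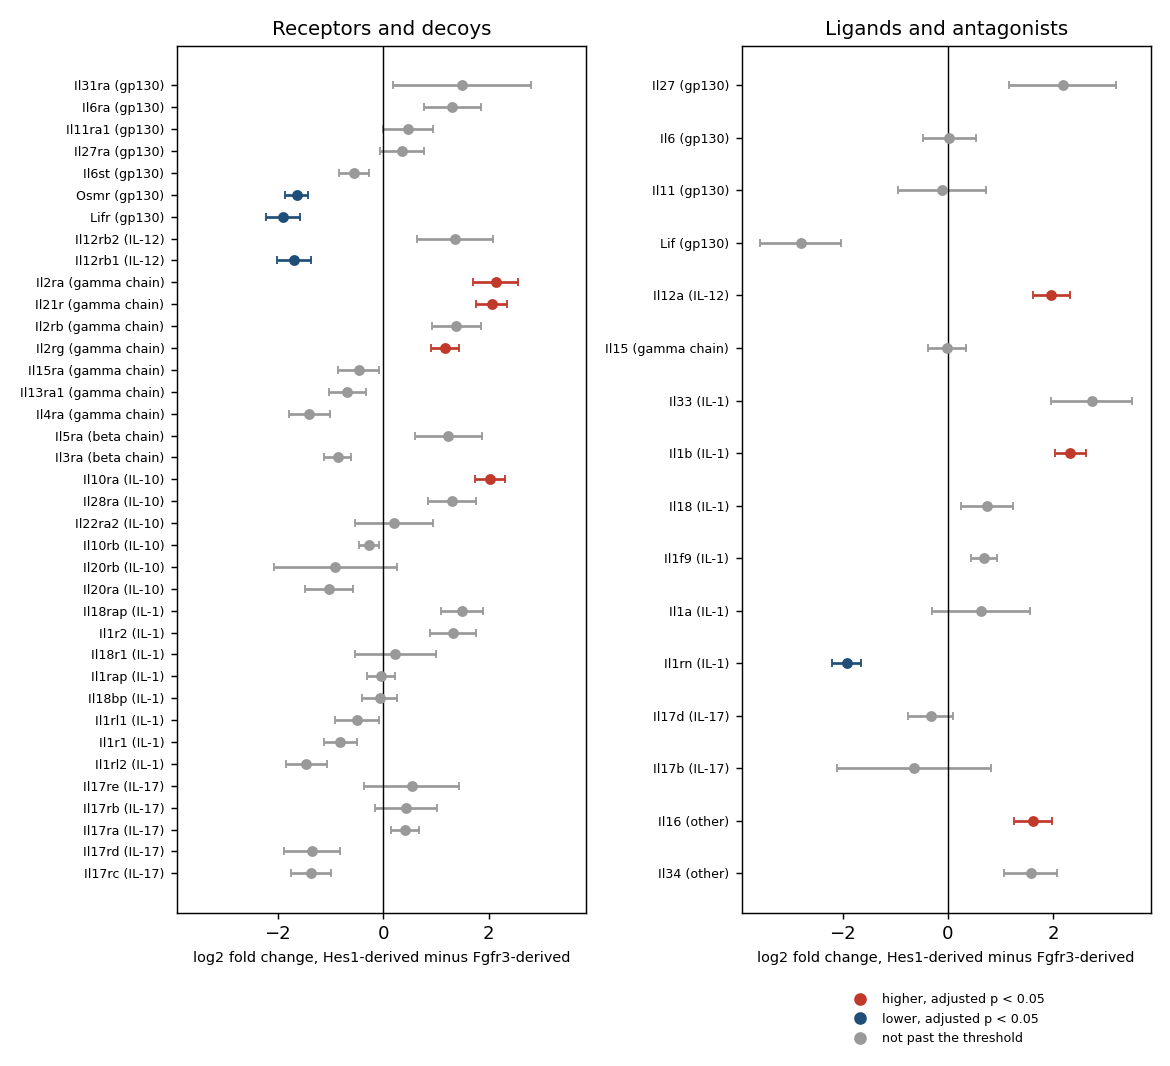
Log2 fold change (Hes1-derived minus Fgfr3-derived, x axis) of the 53 tested genes, receptors and decoys on the left and ligands and antagonists on the right, grouped by cytokine family; bars are 1 standard error, and the colour gives the call at an adjusted p of 0.05. In the gp130 group the coloured points are Lifr and Osmr, both lower, and in the IL-1 family Il1b and Il1rn lie on opposite sides of 0.

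Among the gp130 receptor chains, the LIF and oncostatin M partner chains were lower in Hes1-derived libraries while the shared chain gp130 was not called. Lifr, the LIF receptor chain (chromosome 15, 7090614 to 7197489, plus strand, GRCm38), stood at 262 and 156 CPM in the Hes1-derived against 885 and 682 CPM in the Fgfr3-derived libraries. Both Fgfr3-derived libraries were far above both Hes1-derived ones. The fitted level was 3.75-fold lower in Hes1-derived libraries (log2 fold change −1.91 ± 0.32, edgeR adjusted p = 0.0200). Without Hes1-derived replicate 3 the adjusted p of Lifr was 0.0566, with a log2 fold change of −1.58. With the stroma and eGFP scalings Lifr stayed lower, at −1.38 and −1.16, with adjusted p of 0.125 and 0.400.

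Osmr, the oncostatin M receptor chain, stood at 20.4 and 18.4 against 59.7 and 61.5 CPM. Replicates of a group were close and the groups were apart. It was 3.12-fold lower in Hes1-derived libraries (−1.64 ± 0.22, edgeR adjusted p = 0.0161), and lost the call with the stroma scaling (−1.10, adjusted p = 0.230) and the eGFP scaling (−0.82, adjusted p = 0.497). Osmr lies on chromosome 15 at 6813577 to 6874969 on the minus strand, 215.6 kb from Lifr, with 0 protein-coding genes between them. These 2 of the 3 receptor genes called lower are thus neighbours with opposite orientation.

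Il6st, which encodes gp130 itself (chromosome 13, 112464070 to 112510086, plus strand), stood at 108 and 75.1 against 161 and 106 CPM. The groups overlapped, since Hes1-derived replicate 1 lay above Fgfr3-derived replicate 3. The log2 fold change was −0.55 ± 0.28 (edgeR adjusted p = 0.246), and its sign depended on the scaling, at 0.02 with the stroma markers and 0.26 with eGFP. Per 1000 reads of the CAR stroma marker list, Il6st held 5.45 and 5.69 against 5.49 and 5.47 reads. Its level thus varied less between libraries relative to that list than in CPM. On the same basis Lifr held 13.2 and 11.8 against 30.2 and 35.1, and Osmr 1.03 and 1.39 against 2.03 and 3.16, with no overlap between groups for either gene.

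Ratios of length-scaled levels (TPM, counts divided by exonic length and scaled to a fixed total) within a library need no scaling between libraries. The TPM ratio of Lifr to Il6st was 2.50 and 2.14 in Hes1-derived against 5.65 and 6.60 in Fgfr3-derived libraries, and that of Osmr to Il6st was 0.174 and 0.225 against 0.339 and 0.530. Both ratios were higher in each Fgfr3-derived library. The smallest p that an exact permutation test can give with 2 libraries against 2 is 0.333, and both ratios reached it (two-sided exact permutation test). For Lifr to Osmr the TPM ratio was 14.4 and 9.52 against 16.7 and 12.5, and the groups overlapped (exact permutation p = 0.667). Osteoblast markers moved with these receptors, 7 of 9 being lower in Hes1-derived libraries with a median log2 fold change of −1.92, and their part in the result was not tested.

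**Figure D2:**
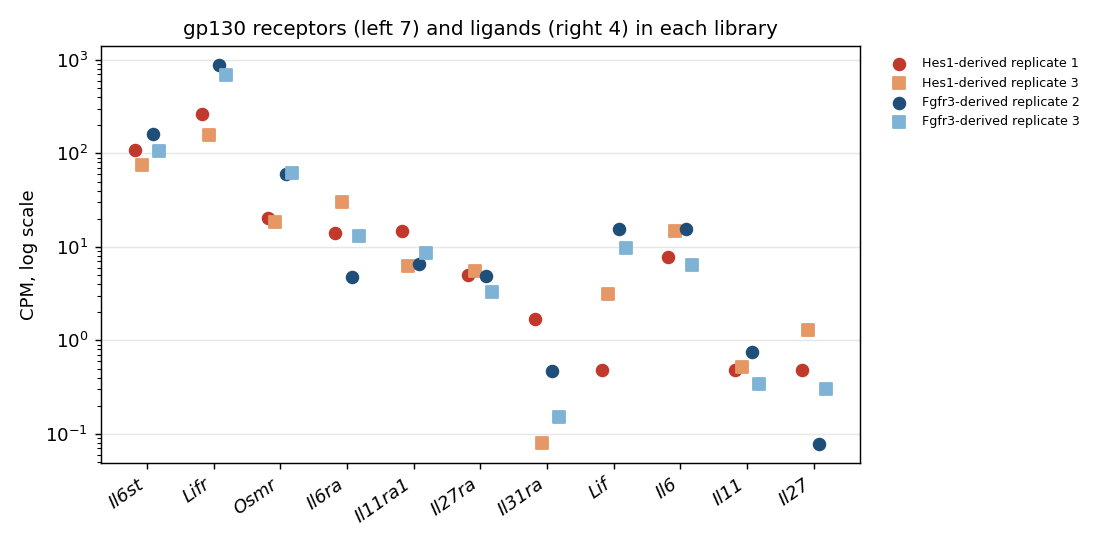
Level of each gp130-group gene in the 4 libraries, in CPM on a log axis, with the 7 receptor chains on the left and the 4 ligands on the right; each point is 1 library. For Lifr, Osmr and Lif the 2 Fgfr3-derived points lie above the 2 Hes1-derived points, and for Il6st, Il6 and Il11 the groups overlap.

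The remaining 4 gp130-group receptor chains did not pass the threshold. Il6ra, the interleukin 6 binding chain, stood at 14.2 and 30.0 against 4.77 and 13.1 CPM, so the groups were apart by a narrow margin (1.31 ± 0.54, edgeR adjusted p = 0.158). DESeq2 called it higher, with an adjusted p of 0.0405, as did the stroma scaling, with 0.0291. Limma-voom (adjusted p = 0.127) and the eGFP scaling (edgeR adjusted p = 0.0804) did not. Il27ra, the interleukin 27 chain, stood at 4.97 and 5.48 against 4.85 and 3.29 CPM (0.36 ± 0.42, edgeR adjusted p = 0.617). Il11ra1, the interleukin 11 chain, stood at 14.9 and 6.20 against 6.50 and 8.71 CPM, and its sign rested on Hes1-derived replicate 1, without which the log2 fold change was −0.30. Its near-identical copy Il11ra2 had no row, so reads from the 2 copies may share the value. Il31ra, the interleukin 31 chain, had 39 and 2 reads against 12 and 4, and also changed sign without Hes1-derived replicate 1, to −1.89. Per length, Lifr was above Il6st, and Il6st above the other gp130 receptor chains, in each of the 4 libraries. Osmr came next in the Fgfr3-derived libraries, at 17.5 and 16.9 TPM, but in the Hes1-derived ones, at 5.50 and 5.21 TPM, it lay among Il11ra1, Il6ra and Il27ra, and their order changed from library to library. Il31ra was the lowest throughout, at no more than 0.985 TPM.

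None of the 4 gp130 ligands passed the threshold. Lif (chromosome 11, 4257557 to 4272514, plus strand) had 11 and 78 reads in Hes1-derived against 396 and 253 in Fgfr3-derived libraries, or 0.484 and 3.14 against 15.6 and 9.67 CPM. The groups were apart, and the Hes1-derived replicates differed 6.50-fold from each other. The log2 fold change of −2.79 ± 0.77 had an edgeR adjusted p of 0.0586, just outside the threshold. DESeq2 (−2.76, adjusted p = 0.000331) and limma-voom (adjusted p = 0.0333) called Lif lower, as did the stroma scaling (−1.99, edgeR adjusted p = 0.0410), but the eGFP scaling did not (−1.59, adjusted p = 0.283). Per 1000 reads of the stroma list Lif held 0.0244 and 0.238 against 0.532 and 0.497.

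Il6 stood at 7.74 and 14.7 against 15.6 and 6.46 CPM, and the spread within each group exceeded the difference between them (0.03 ± 0.51, edgeR adjusted p = 0.978). Il11 had 11 and 13 against 19 and 9 reads (−0.11 ± 0.83), and its sign turned with the stroma and eGFP scalings, to 0.54 and 0.80. Il27, which encodes the p28 subunit of interleukin 27, had 11 and 32 against 2 and 8 reads (2.17 ± 1.01, edgeR adjusted p = 0.202). Per length, Il6 was the most abundant of these ligands in each of the 4 libraries, at 8.83 to 22.9 TPM; Lif came second in the Fgfr3-derived libraries, at 12.8 and 7.38 TPM, and lay below Il27 in the Hes1-derived ones. Lif and Lifr gave a TPM ratio of 0.00457 and 0.0499 against 0.0437 and 0.0351; Hes1-derived replicate 1 stood apart and the groups overlapped. The gp130 ligands and receptors outside the set gave no call with TMM factors. Osm, which encodes oncostatin M, stood at 39.0 and 90.7 against 16.8 and 34.8 CPM (1.33 ± 0.47, edgeR adjusted p = 0.111), and Ebi3, the partner subunit of interleukin 27, at 44.2 and 50.7 against 13 and 29.0 CPM (1.17 ± 0.38, adjusted p = 0.0846). With the stroma scaling edgeR called both higher (Osm 1.90, adjusted p = 0.0194, and Ebi3 1.65, adjusted p = 0.0450). With the eGFP scaling it called neither (adjusted p = 0.0702 for Osm and 0.118 for Ebi3).

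In the interleukin 1 family the antagonist and interleukin 1 beta moved in opposite directions. Il1rn, the receptor antagonist (chromosome 2, 24336853 to 24351494, plus strand), stood at 231 and 204 CPM in Hes1-derived against 966 and 685 CPM in Fgfr3-derived libraries. Per length it was the highest of the whole set in both Fgfr3-derived libraries, at 621 and 411 TPM, but not in the Hes1-derived ones, where it stood at 136 and 127 TPM and Il1r2 at 140 and 215 TPM. It was 3.79-fold lower in Hes1-derived libraries (−1.92 ± 0.27, edgeR adjusted p = 0.0164), and stayed lower but not called with the stroma scaling (−1.33, adjusted p = 0.146) and the eGFP scaling (−1.06, adjusted p = 0.428). Per 1000 stroma-list reads Il1rn held 11.7 and 15.5 against 32.9 and 35.2, without overlap. Of 9 osteoblast markers 7 were called lower, with a median log2 fold change of −1.92. Of 6 tested osteoclast markers 1 was called higher and 1 lower, and of 10 pan-leukocyte markers 7 were called higher. The part of these cell types in the Il1rn call was not tested.

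Il1b, which encodes interleukin 1 beta (chromosome 2, 129364570 to 129371139, minus strand), stood at 102 and 69.5 against 14.2 and 20.1 CPM. Both Hes1-derived libraries were above both Fgfr3-derived ones, and the level was 5.0-fold higher (2.32 ± 0.29, edgeR adjusted p = 0.0150), a call that all 13 alternatives kept. An antisense gene, Il1bos, overlaps its exons, and without a stated strand setting reads of the 2 cannot be told apart. The TPM ratio of Il1rn to Il1b was 0.779 and 1.0 in Hes1-derived against 23.4 and 11.7 in Fgfr3-derived libraries. Antagonist and ligand transcripts were thus near parity per length in the first group, while the antagonist was more than 10-fold in excess in the second. Each gene alone already separated the groups, in opposite directions, so the ratio had to separate them and no p-value is given. The parity depends on the exonic lengths used, 5535 bases for Il1rn and 1907 for Il1b. In reads, the Hes1-derived libraries held 5257 and 5075 of Il1rn against 2324 and 1725 of Il1b. Per 1000 pan-leukocyte reads Il1b held 16.7 and 9.57 against 8.03 and 5.26, so the groups stayed apart by a smaller margin. Neutrophil and monocyte markers, of cell types known to make interleukin 1 beta, had median log2 fold changes of 0.99 and 1.01. Of these markers 0 of 9 and 2 of 11 were called higher, and the monocyte list includes the stroma marker Vcam1. The part of these cell types in the Il1b call was not tested.

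The other tested interleukin 1 family ligands were not called. Il1f9, which encodes interleukin 36 gamma, stood per length at 82.5 and 101 against 51.5 and 64.4 TPM, below Il1b in the Hes1-derived libraries and above it in the Fgfr3-derived ones, and at 41.7 and 48.3 against 23.8 and 31.9 CPM (0.69 ± 0.25, edgeR adjusted p = 0.112). Il33, an alarmin held in the nucleus, had 97 and 136 against 6 and 32 reads (2.73 ± 0.76, edgeR adjusted p = 0.0610). It was called higher by DESeq2 (adjusted p = 0.00350) and limma-voom (0.0380), and with the stroma (0.00359) and eGFP scalings (0.0216). Il18 had 131 and 130 against 54 and 116 reads, and Il1a 14 and 63 against 11 and 42, where the groups overlapped.

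Of the interleukin 1 family receptors, decoys and binding proteins, 8 were tested and none was called, though with TMM factors the decoy and the signalling receptor had opposite signs. Il1r2, the decoy receptor, stood at 82.1 and 120 against 22.0 and 58.5 CPM (1.32 ± 0.44, edgeR adjusted p = 0.0938). DESeq2 (adjusted p = 0.00730) and the stroma scaling (edgeR, 0.0311) called Il1r2 higher, and limma-voom (0.0593) and the eGFP scaling (edgeR, 0.0935) did not. Il1r1, the signalling receptor, stood at 91.3 and 64.4 against 173 and 101 CPM (−0.81 ± 0.31, edgeR adjusted p = 0.131). With the eGFP scaling its log2 fold change was 0.0081 (edgeR adjusted p = 0.995). The TPM ratio of decoy to signalling receptor was 3.00 and 6.19 in Hes1-derived against 0.424 and 1.94 in Fgfr3-derived libraries, while that of the antagonist Il1rn to Il1r1 was 2.91 and 3.65 against 6.41 and 7.83. Relative to Il1r1, the decoy transcript was thus higher and the antagonist transcript lower in Hes1-derived libraries. The ratio of Il1rn to Il1r1 had an exact permutation p of 0.333, the smallest possible. The ratio of Il1r2 to Il1r1 had to separate the groups, because the 2 genes alone separated them in opposite directions. In bulk libraries these transcripts may come from different cells, which was not tested. With TMM factors the accessory chain Il1rap was level, at 22.4 and 31.3 against 29.4 and 25.8 CPM (−0.04 ± 0.26, edgeR adjusted p = 0.942), and the soluble binding protein Il18bp at 10.9 and 9.27 against 9.14 and 12.0 CPM (−0.07 ± 0.33).

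6 neighbouring receptor genes of this family lie in a row on chromosome 1 with 0 protein-coding genes between adjacent members, in the order Il1r2, Il1r1, Il1rl2, Il1rl1, Il18r1 and Il18rap. Their gaps were 99.8, 7.4, 62.0, 0.1 and 14.5 kb. Along that order the log2 fold changes were 1.32, −0.81, −1.46 ± 0.40 (adjusted p = 0.0562), −0.50, 0.23 and 1.49 ± 0.40 (adjusted p = 0.0546), by edgeR. The outermost genes thus had positive values, and the 3 genes after Il1r2 negative ones, of which Il1rl1 turned positive with the stroma scaling (0.20) and both Il1rl1 and Il1r1 with the eGFP scaling (0.48 and 0.0081). The interleukin 36 receptor Il1rl2 was lowest and the interleukin 18 accessory chain Il18rap highest. DESeq2 called Il1rl2 lower and Il18rap higher, with adjusted p of 0.00525 and 0.00447. The edgeR adjusted p with the stroma and eGFP scalings was 0.336 and 0.526 for Il1rl2, and 0.0244 and 0.0759 for Il18rap.

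**Figure D3:**
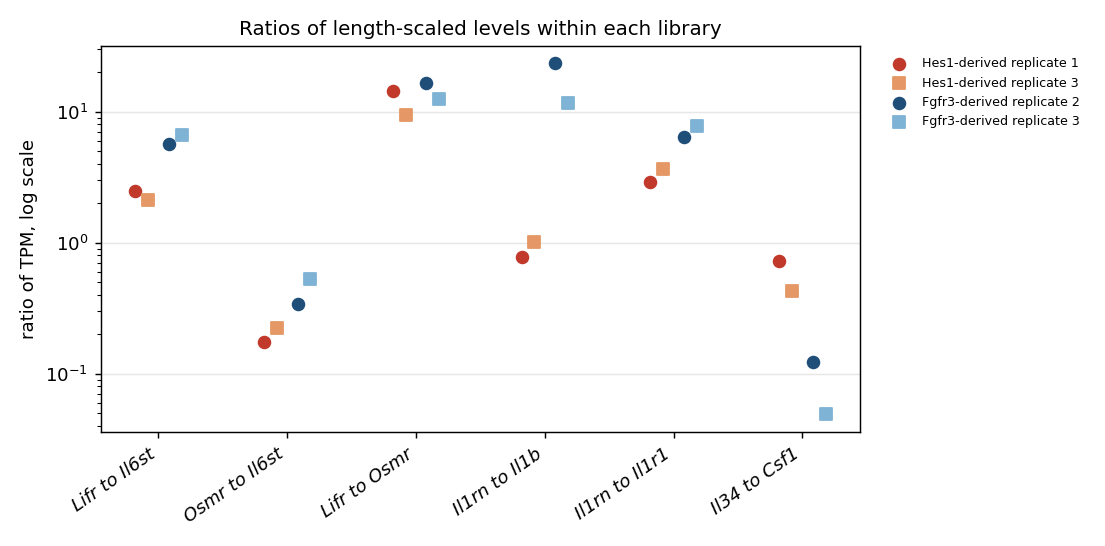
Ratio of length-scaled levels (TPM) of pairs of genes within each library, on a log axis; each point is 1 library. The ratio of Il1rn to Il1b lies near 1 in the Hes1-derived and above 10 in the Fgfr3-derived libraries, and the ratio of Lifr to Osmr overlaps between groups.

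Of the 4 receptor chains that were higher in Hes1-derived libraries, 3 belong to the common gamma chain group of lymphocyte cytokine receptors and the other is the interleukin 10 binding chain. Il10ra stood at 44.4 and 55.5 against 10.2 and 14.3 CPM, 4.08-fold higher (2.03 ± 0.28, edgeR adjusted p = 0.0161). Il21r, the interleukin 21 chain, stood at 31.8 and 36.3 against 6.54 and 9.82 CPM, 4.16-fold higher (2.06 ± 0.30, adjusted p = 0.0164). Both kept the call under all 13 alternatives. Il2ra, which encodes CD25, stood at 17.5 and 34.1 against 4.37 and 7.38 CPM (2.13 ± 0.43, adjusted p = 0.0276), and did not pass when Hes1-derived replicate 3 was left out (adjusted p = 0.116), nor when Fgfr3-derived replicate 2 was (0.0908). Il2rg, the common gamma chain, stood at 102 and 104 against 35.4 and 55.6 CPM (1.18 ± 0.26, adjusted p = 0.0332). It overlaps the gene model Gm20489 on the same strand, and did not pass with Hes1-derived replicate 1 (0.0659) or 3 (0.113) or Fgfr3-derived replicate 2 (0.0868) left out, or with the eGFP scaling (0.124). The groups did not overlap for any of these 4 receptors.

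Leukocyte markers moved with these receptors: 7 of 10 pan-leukocyte and 10 of 11 B lymphocyte markers were called higher in Hes1-derived libraries, with median log2 fold changes of 1.49 and 2.30, and of 9 tested T lymphocyte and NK markers 1 was. The T lymphocyte markers Cd3e and Cd3g were at 0 in Fgfr3-derived replicate 2. Per 1000 pan-leukocyte reads, Il10ra held 7.24 and 7.64 against 5.74 and 3.74, Il21r 5.20 and 4.99 against 3.69 and 2.57, and Il2ra 2.85 and 4.70 against 2.47 and 1.93, while Il2rg held 16.6 and 14.3 against 20.0 and 14.6. On that basis the first 3 did not overlap between groups and Il2rg did. The part of the leukocyte reads in these calls was not tested further.

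The remaining chains of the gamma chain group went in both directions. Il2rb, shared by interleukins 2 and 15, stood at 14.6 and 12.1 against 3.00 and 7.18 CPM (1.39 ± 0.47, edgeR adjusted p = 0.0951). DESeq2 (adjusted p = 0.0223) and the stroma scaling (edgeR, 0.0474) called Il2rb higher, and limma-voom (0.0626) and the eGFP scaling (edgeR, 0.114) did not. Il4ra, the interleukin 4 and 13 signalling chain, stood at 51.8 and 34.6 against 73.1 and 155 CPM (−1.40 ± 0.38, adjusted p = 0.0575; DESeq2 adjusted p = 0.00200), and Il13ra1, its partner for interleukin 13, at 16.9 and 34.3 against 42.6 and 39.4 CPM (−0.68 ± 0.34, adjusted p = 0.238). Il2rg and Il4ra pair in an interleukin 4 receptor, and their TPM ratio was 4.93 and 7.56 against 1.22 and 0.903. Il15ra did not pass (−0.46 ± 0.39). Among interleukin 10 family receptors, the widely used second chain Il10rb stood at 108 and 105 against 129 and 127 CPM. The groups did not overlap and the difference was small (−0.26 ± 0.19, edgeR adjusted p = 0.403), with log2 fold changes of 0.30 and 0.58 under the stroma and eGFP scalings. The TPM ratio of Il10ra to Il10rb was 0.445 and 0.575 against 0.0860 and 0.122. Il28ra, the interferon lambda chain (1.31 ± 0.45), Il20ra (−1.03 ± 0.45), Il20rb (−0.91 ± 1.16) and the binding protein Il22ra2 (0.21 ± 0.73) were not called.

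Il12rb1, the chain shared by the receptors of interleukins 12 and 23, was the remaining receptor lower in Hes1-derived libraries. It stood at 6.68 and 4.71 against 18.3 and 18.5 CPM, without overlap, and was 3.23-fold lower (−1.69 ± 0.33, edgeR adjusted p = 0.0251). The call did not hold with Hes1-derived replicate 3 left out (adjusted p = 0.109) or with Fgfr3-derived replicate 2 left out (0.0697), nor with the stroma (−1.18, 0.243) or eGFP scaling (−0.93, 0.472). Per 1000 stroma-list reads it held 0.337 and 0.357 against 0.624 and 0.951, and the part of other cell types in its call was not tested. Its partner for interleukin 12, Il12rb2, had 38 and 69 against 32 and 12 reads (1.37 ± 0.72, edgeR adjusted p = 0.257), and its partner for interleukin 23, Il23r, was at 0 in both Hes1-derived libraries with 3 and 2 reads in the others.

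None of the 5 interleukin 17 receptor chains and neither chain of the interleukin 3 and 5 receptors was called. Il17ra, the shared chain, was among the most abundant receptors and overlapped between groups, at 188 and 227 against 121 and 189 CPM (0.42 ± 0.27, edgeR adjusted p = 0.339). Its partner Il17rc stood at 25.0 and 11.4 against 43.4 and 50.6 CPM (−1.37 ± 0.37, adjusted p = 0.0577; DESeq2 adjusted p = 0.00356), so that the TPM ratio of Il17ra to Il17rc was 2.32 and 6.11 against 0.860 and 1.15. With the stroma and eGFP scalings Il17rc was not called (edgeR adjusted p = 0.326 and 0.539). Il17rd (−1.35 ± 0.53), Il17rb (0.43 ± 0.59) and Il17re (0.54 ± 0.90) did not pass. Il3ra stood at 14.5 and 15.2 against 25.0 and 29.2 CPM (−0.86 ± 0.25, edgeR adjusted p = 0.0669; DESeq2 adjusted p = 0.0480) and Il5ra at 3.34 and 3.59 against 0.749 and 2.18 CPM (1.24 ± 0.63, adjusted p = 0.241). For Il3ra the stroma and eGFP scalings gave −0.32 and −0.020, with edgeR adjusted p of 0.747 and 0.987.

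Beyond Il1b, the ligands that were higher in Hes1-derived libraries were Il16 and Il12a. Il16, whose product is a ligand of CD4, stood at 171 and 185 against 36 and 80.4 CPM, 3.06-fold higher (1.61 ± 0.37, edgeR adjusted p = 0.0349). Exons of Stard5 and of an antisense gene overlap it on the opposite strand, and the call did not hold with Hes1-derived replicate 1 (adjusted p = 0.0845) or 3 (0.145) or Fgfr3-derived replicate 2 (0.0517) left out, or with the eGFP scaling (0.0650). Il12a, which encodes the p35 subunit of interleukins 12 and 35, stood at 22.8 and 24.5 against 4.45 and 7.68 CPM, 3.90-fold higher (1.96 ± 0.35, adjusted p = 0.0216), and did not pass when Hes1-derived replicate 3 (0.0658) or Fgfr3-derived replicate 2 (0.0536) was left out. For both genes the groups did not overlap. Its interleukin 12 partner Il12b had 9 and 2 reads against 0 and 0, so these libraries held the p35 transcript with very little p40; its interleukin 35 partner Ebi3 is given above. Per 1000 pan-leukocyte reads Il16 held 28 and 25.5 against 20.3 and 21.0, and Il12a 3.73 and 3.38 against 2.51 and 2.01, still without overlap.

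Il34, which encodes an alternative ligand of the CSF-1 receptor, stood per length at 160 and 78.2 against 61.3 and 23.5 TPM, so its place among the ligands differed between libraries. It stood at 96.4 and 44.6 against 33.7 and 13.9 CPM (1.57 ± 0.50, edgeR adjusted p = 0.0825), with the groups apart. DESeq2 (adjusted p = 0.00218) and the stroma scaling (2.15, edgeR adjusted p = 0.00720) called it higher. Limma-voom (adjusted p = 0.0676) and the eGFP scaling (edgeR adjusted p = 0.0661) did not. Per 1000 stroma-list reads Il34 held 4.87 and 3.38 against 1.15 and 0.713. The TPM ratio of Il34 to Csf1, the gene of the other ligand of that receptor and 1 of 2 stroma-list genes called lower, was 0.731 and 0.430 against 0.124 and 0.0488. Il15 (−0.01 ± 0.36) and Il17d (−0.33 ± 0.43) were not called, at 13.5 to 23.3 and 9.95 to 24.6 CPM, and Il17b had 3 and 27 against 48 and 1 reads.

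The 19 genes that were not tested had 2 to 33 reads each over the 4 libraries, while the least abundant tested gene had 52. They included the lymphocyte cytokines Il4, Il5, Il10, Il13 and Il21, Il17c and Il17f, the Il23a and Il12b subunits, the interleukin 36 genes Il1f5 and Il1f8, Il1f10, Il19, the receptors Il9r, Il22ra1, Il23r and Il1rapl1, the decoy Il13ra2, and Il4i1. Il9r, the interleukin 9 receptor, had 9 reads in each Hes1-derived library and 0 in each Fgfr3-derived library. Against a floor of 3 reads over the Fgfr3-derived group, the 18 observed reads were 6.50-fold higher. That value allows for counting error of the zeros only, not of the 18 reads, and Il9r was not tested.

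**Figure D4:**
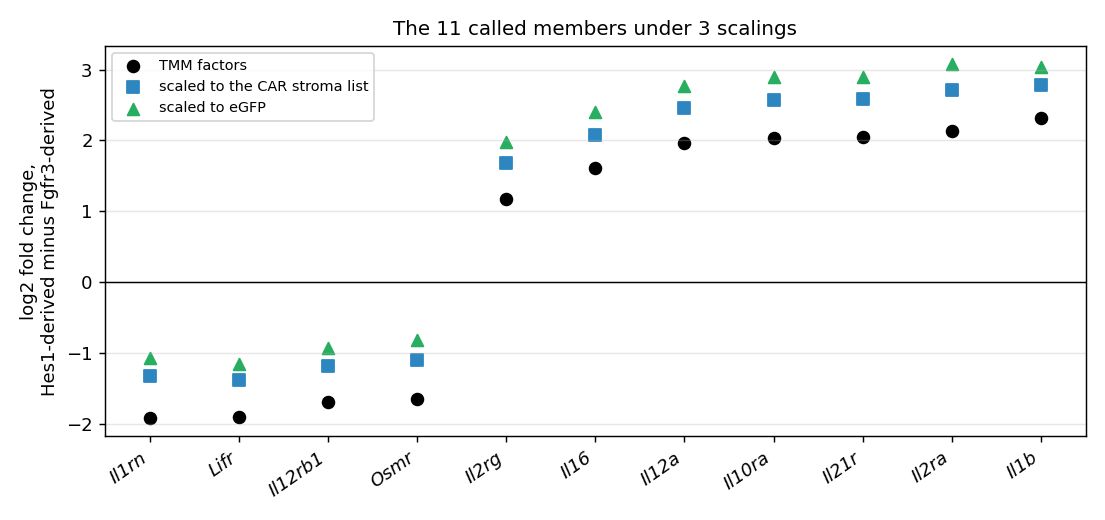
Log2 fold change (y axis) of the 11 called genes when libraries were scaled by TMM factors, by the summed CAR stroma markers or by the eGFP row. All 11 keep their sign under the 3 scalings, and the 4 lower genes lie closer to 0, between −0.82 and −1.38, under the stroma and eGFP scalings.

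Related ligands and receptors outside the set, and the signalling genes of these pathways, were mostly not called. Across 7 lists with 81 rows, 80 were tested, of which 2 were higher and 3 lower, with a median log2 fold change of 0.0028 (all tested genes, 5.24% higher, 6.56% lower and a median of −0.02). Among 11 JAK and STAT genes, Stat3, the main transducer of gp130, stood at 326 and 310 against 586 and 591 CPM and was 1.85-fold lower in Hes1-derived libraries (−0.89 ± 0.22, edgeR adjusted p = 0.0444), though with the stroma and eGFP scalings the value was −0.34 and −0.051 and was not called. Stat4, which interleukin 12 activates, stood at 24.5 and 23.4 against 8.04 and 11.9 CPM and was higher (1.27 ± 0.30, edgeR adjusted p = 0.0400). With the eGFP scaling Stat4 was not called (2.06, edgeR adjusted p = 0.107). Jak1, which binds gp130, was not called (−0.37 ± 0.23, edgeR adjusted p = 0.329), nor was it with the stroma scaling (0.24, adjusted p = 0.816). Stat3 was lower in the libraries where Lifr and Osmr were lower, and Stat4 was higher where Il12rb1 was lower. With 2 groups, any called genes must move either together or oppositely, and no link between these genes was tested. Pan-leukocyte markers were also higher, with a median log2 fold change of 1.49, and their part in the Stat4 call was not tested. Of 15 inhibitors none was called; Socs3, the feedback inhibitor of gp130, stood at 495 and 283 against 776 and 715 CPM (−0.94 ± 0.31, adjusted p = 0.0933), and the list had a median of −0.33 with TMM factors.

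Of 16 genes that STAT3 is known to induce, 1 was called: Timp1, a metalloproteinase inhibitor, stood at 7.03 and 6.61 against 42.6 and 43.2 CPM and was 6.29-fold lower (−2.65 ± 0.25, edgeR adjusted p = 0.0130; −2.10, adjusted p = 0.0102, with the stroma scaling and −1.82, adjusted p = 0.161, with the eGFP scaling). A gene on the opposite strand overlaps Timp1, and the median over the 16 was −0.05. Among 14 other cytokine receptors, Epor, the erythropoietin receptor, was higher (1.51 ± 0.29, adjusted p = 0.0259) and Ifngr2, an interferon gamma receptor chain, lower (−0.85 ± 0.21, adjusted p = 0.0423), the latter at −0.31 and not called with the stroma scaling. Erythroid markers moved with Epor, 7 of 8 being called higher with a median of 1.78, and their part in it was not tested. None of 14 interleukin 1 and 4 interleukin 17 signalling genes was called; the most abundant per length were Nfkbia (0.49 ± 0.27, adjusted p = 0.274) and Traf2 (−0.08 ± 0.24, adjusted p = 0.858).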

How the data were processed

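Counts were whole reads per gene symbol in 4 bulk libraries, deposited by the authors. Per the submitters' processing notes reads were handled with HTSeq, TopHat2 2.0.13, DESeq2, Cufflinks, FastQC, Cuffdiff and Bowtie2 2.2.1 (build mm10); their roles, the annotation and the strand setting are not given in the sources used here. Per the labels, cells were sorted for GFP and tdTomato in the series design but for tdTomato alone, followed by single-cell loading, in the extraction protocol; with 1 column of counts per library the values were treated as bulk.

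All 17230 rows entered edgeR 4.0.16 (R 4.3.3) with TMM factors, its filter (minimum count 10; 14330 genes kept) and robust quasi-likelihood tests, adjusted by Benjamini-Hochberg at 0.05. Standard errors were taken as the size of a log2 fold change over the root of its F value. The biological coefficient of variation was 27.8%, with 2 residual degrees of freedom. TPM used exonic lengths of GENCODE M21 (GRCm38), which matched all 72 genes. In that annotation exons of Il10rb overlap Gm21970 on the same strand. Exons of Il11ra1, Il12rb2, Il27 and Il27ra, among others, overlap protein-coding genes on the opposite strand. Without the strand setting, reads of such overlapping genes cannot be told apart. The script was tested on simulated data. Alternatives were other scalings, filters, DESeq2 1.42.0, limma-voom 3.58.1 and leaving out each library. The genes, lists and tests were chosen with earlier results of these data known. All gp130-group genes are described, then, among ligands and receptors apart, called genes and the 4 most abundant; others were named after their values were seen.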

Additional observations from a re-analysis of the deposited data

How the results depend on the processing

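No paired analysis was possible because the groups share only replicate number 3. Of the 11 calls, Il10ra, Il1b and Il21r passed under all 13 alternatives. RLE and upper-quartile factors, library totals and both filters left 7 or 8 genes of the set higher and 4 or 5 lower. The counts higher and lower were 13 and 1 with the stroma scaling, 6 and 0 with the eGFP scaling, 13 and 9 with DESeq2 and 9 and 7 with limma-voom; leaving out 1 library gave 3 to 12 higher and 3 to 6 lower. The 12 came without Fgfr3-derived replicate 3, the 3 without Hes1-derived replicate 3, and 4 were higher without Fgfr3-derived replicate 2. For pathway genes they were 7 and 1 with the stroma scaling, 0 and 0 with the eGFP scaling and 8 and 6 with DESeq2, and 1 to 10 and 1 to 3 without 1 library, where 10 higher were called without Fgfr3-derived replicate 3. Of all genes, 6.54% were higher and 0.935% lower with the stroma scaling, and 2.26% and 0.133% with the eGFP scaling. DESeq2 gave 8.19% and 9.01%, and limma-voom 6.22% and 7.32%. The shares of all genes also changed with the library left out, and most were called higher without Fgfr3-derived replicate 3. Counts with 1 library left out are thus not a result about the set or the pathway genes alone. With the stroma and eGFP scalings the log2 fold change turned to 0.30 and 0.58 for Il10rb, 0.54 and 0.80 for Il11, and 0.023 and 0.26 for Il6st. Leaving out 1 library, it ran from −0.52 to 0.56 for Il11 (0.56 without Fgfr3-derived replicate 2), from −0.30 (without Hes1-derived replicate 1) to 0.97 for Il11ra1, from −1.89 (without Hes1-derived replicate 1) to 2.51 for Il31ra, and from −0.51 to 0.82 for Il6 (−0.51 without Hes1-derived replicate 3, −0.42 without Fgfr3-derived replicate 3). The causes were not tested. Leaving out 1 library ended 6 of the 11 calls, those of Il12a, Il12rb1, Il16, Il2ra, Il2rg and Lifr. Genes with 33 or fewer reads over the 4 libraries were not tested.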
